A study of Mus musculus with 9 samples.

Results

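The genes described here are 38 mouse genes for subunits of the BAF (SWI/SNF) remodelling complex, for Polycomb repressive complex 2 (PRC2) and for enzymes that write or erase histone marks, out of 21911 protein-coding genes. They were listed by name for their function, and a CUT&RUN peak of CHD7, itself a chromatin remodelling enzyme, was assigned to a gene when its midpoint lay in the regulatory domain of that gene. The domain ran from 5 kb upstream to 1 kb downstream of the transcription start site (TSS), and was extended on each side to the nearest such basal domain of another gene or up to 1 Mb. By this rule 16 of the 38 genes had at least 1 of the 3761 CHD7 peaks and 22 had none, while 22.7% of all protein-coding genes had one.

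The peaks come from wild-type mouse embryonic stem cells, collected at day 5 of differentiation toward cardiomyocytes, at the stage of cardiac precursor (CP) cells. In CUT&RUN, an antibody bound to a chromatin protein brings a nuclease to it, and the DNA fragments that are cut free are sequenced. There were 9 libraries, 3 biological replicates each of anti-CHD7, of the IgG control and of Input without antibody. Only the boundaries of the peaks were used here, from 1 deposited list that joins the 3 anti-CHD7 replicates. The depth of each library is therefore unknown, no value has a replicate error, and no test between groups was possible. The markers of CP cells cannot be checked in a list of peaks. The 95% confidence intervals below (Wilson) cover the counting error alone, and genes that share a peak are not independent.

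BAF complexes use the energy of ATP to move or evict nucleosomes and are built around 1 of a pair of alternative ATPases, with further subunits that are exchanged as cells differentiate. PRC2 methylates histone H3 at lysine 27 (H3K27), a mark of repressed genes, whereas the MLL-type methyltransferases mark H3K4 at promoters and enhancers. Histone acetyltransferases open chromatin and histone deacetylases (HDACs) reverse this mark. In the developing heart, the subunits of BAF in particular are known for dosage-sensitive roles.

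A peak within 1 kb of a TSS of their own was found in 3 of the 38 genes, namely Smarcd2, Actl6a and Jarid2. Among all protein-coding genes 2.87% had such a peak. The count of 3 genes is too small to tell the shares apart, and the difference was not tested. Jarid2 was counted by a TSS other than the one used for its domain. The sequences of these 3 places are shown first, because there the assignment of peak to gene does not depend on the extended domain. They are from GRCm38 (mm10), 5′ to 3′ on the strand of the gene, and capitals mark the motif matches named. Smarcd2 encodes a BAF60 subunit, which links the complex to transcription factors. Its peak of 767 bp (chr11:106272736-106273502) had its midpoint 147 bp upstream of the TSS, on the minus strand. The central 200 bases (chr11:106273019-106273218) were 67.0% G and C and held 3 GC boxes (GGGCGG, searched on both strands).
Smarcd2 peak: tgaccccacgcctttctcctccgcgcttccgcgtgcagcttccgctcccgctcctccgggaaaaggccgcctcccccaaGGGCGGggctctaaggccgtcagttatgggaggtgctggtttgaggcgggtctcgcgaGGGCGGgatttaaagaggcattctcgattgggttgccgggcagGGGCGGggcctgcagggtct
Tcam1 was the other gene whose domain held this peak. The domain of Smarcd2, 16893 bp long, was the shortest among the 16 genes with a peak.

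Actl6a encodes BAF53a, an actin-like subunit of progenitor cells. Its peak of 1706 bp (chr3:32708060-32709765) had its midpoint 147 bp from the closest TSS of Actl6a and 405 bp downstream of the TSS used for the domain, and it lay in no other domain. The midpoint fell in an exon of a noncoding transcript of Actl6a and in the first intron of its coding transcript. Within the central 200 bases there were 3 matches to the ETS core (CCGGAA), shown in capitals with the flanking bases on the strand of the match.
Actl6a ETS match at chr3:32708916-32708921, plus strand: ggcgtgcggaCCGGAAcgaccggcct
Actl6a ETS match at chr3:32708975-32708980, minus strand: cgtccaaagaCCGGAAgggcccgccg
Actl6a ETS match at chr3:32708995-32709000, minus strand: catacggggaCCGGAAgcaccgtcca
The first match reads on the strand of the gene and the others read on the opposite strand.

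Jarid2 encodes an accessory subunit that helps to bring PRC2 to chromatin and is needed for normal heart development. Its nearest peak of 602 bp (chr13:44728297-44728898) had its midpoint 877 bp upstream of the closest TSS and 2674 bp upstream of the TSS used for the domain. No other domain held it. Its base composition was unlike that of the Smarcd2 and Actl6a peaks. The Jarid2 peak was 42.7% G and C with an observed to expected ratio of CpG of 0.0365, against 62.7% and 0.916 at Smarcd2 and 56.7% and 0.821 at Actl6a. In its central 200 bases (chr13:44728497-44728696) there was 1 SOX match (ACAAAG) in capitals.
Jarid2 peak: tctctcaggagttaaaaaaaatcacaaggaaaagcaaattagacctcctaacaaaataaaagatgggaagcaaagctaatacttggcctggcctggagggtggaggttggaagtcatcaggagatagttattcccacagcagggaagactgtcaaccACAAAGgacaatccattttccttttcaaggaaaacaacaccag
Thus 2 of the 3 peaks close to a TSS were rich in CpG and the Jarid2 peak was not.

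**Figure D1:**
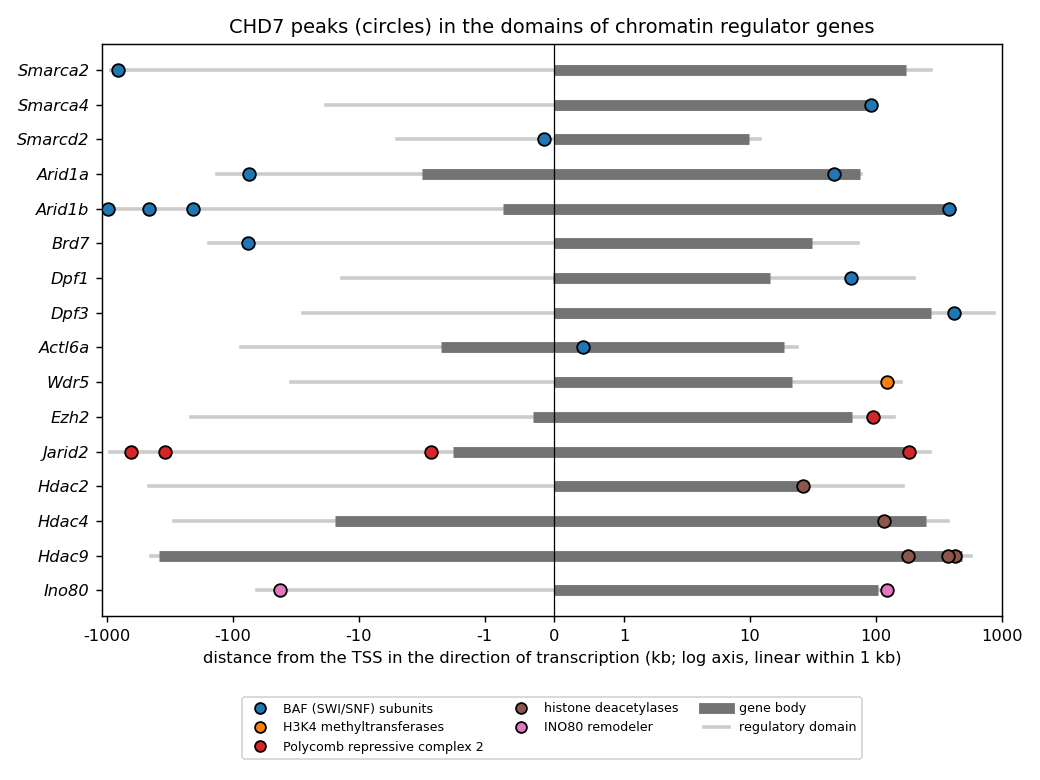
Distance from the TSS used for the domain to the midpoint of each of the 26 peaks, 1 row for each of the 16 genes with a peak; the axis is in kb, upstream to the left, logarithmic and linear within 1 kb, with the gene body (dark) and the domain (light) as bars. The peaks of Smarcd2 (147 bp upstream), Actl6a (405 bp downstream) and Jarid2 (2674 bp upstream) sit at the centre, and the other 23 lie between 26557 and 992816 bp away.

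The other peaks were distant. The 38 genes formed 26 pairs with 26 different peaks, at a median distance of 121856 bp from the TSS used for the domain, with a range from 147 to 992816 bp. Over all 6819 pairs of a protein-coding gene with a peak in its domain, the median was 57398 bp. These medians were not matched for domain length, which limits how far away a peak can be. In 11 pairs the peak was upstream and in 15 it was downstream. In 8 pairs, of 6 genes, it lay inside the body of the gene itself. Over all genes 8.08% had a peak in the body, and 5.60 of 38 genes of like gene length would have one, close to the 6 observed. For 11 pairs, in 9 genes (Actl6a, Arid1a, Arid1b, Brd7, Hdac2, Hdac4, Hdac9, Jarid2 and Smarcd2), the nearest TSS of any protein-coding gene was that of the gene described. In 23 of the 26 pairs the peak lay in the domain of another gene as well. The exceptions were 1 peak each of Arid1b, Actl6a and Jarid2. Which gene a shared peak acts on, if any, was not tested.

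Among the alternative ATPases, Smarca4, which encodes BRG1, had 1 peak (chr9:21708052-21708465), 92089 bp downstream of its TSS and past the end of the gene. Smarca2, which encodes BRM, also had 1 peak (chr19:25789502-25790165), 815219 bp upstream, in the gene desert shared with Dmrt2. A peak nearer to Smarca2, at 139845 bp, was not assigned to it because it lay outside the domain, in those of Vldlr and Gm815. Both ATPase genes thus had a distant peak only.

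Arid1a and Arid1b encode the alternative ARID subunits that define the canonical BAF complex, and together they held 6 peaks. Arid1b had 4, at 992816, 465138 and 209488 bp upstream and 382714 bp downstream, spread over 1375530 bp with no pair closer than 255650 bp. Its domain of 1422693 bp was the longest of the 38. The farthest of these peaks lay just inside the limit of 1 Mb. Nox3 shared the outer upstream peaks, Ldhal6b shared the downstream one, and the peak at 209488 bp (chr17:4785236-4785937) lay in no other domain. Of the 3 upstream peaks, only the farthest was nearer to Nox3 than to Arid1b.
Arid1a had 2 peaks, 120781 bp apart. The first (chr4:133706407-133707864) lay in an intron of Arid1a, 46476 bp downstream of the TSS used and 13641 bp from another TSS of Arid1a. The second (chr4:133827675-133828158) was 74305 bp upstream and nearer to Rps6ka1, a growth factor-responsive kinase. The central 200 bases of the intronic peak (chr4:133707035-133707234, minus strand as the gene) held 1 ETS match in capitals.
Arid1a intronic peak: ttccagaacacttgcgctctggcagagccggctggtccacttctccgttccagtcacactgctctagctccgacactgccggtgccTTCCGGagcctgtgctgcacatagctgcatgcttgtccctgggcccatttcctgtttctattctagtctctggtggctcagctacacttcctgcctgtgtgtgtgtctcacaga
Arid2, the ARID subunit of the PBAF form, had the longest domain among the genes without a peak, at 667999 bp, and its nearest peak was 145638 bp from its TSS.

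The remaining BAF genes with a peak were Brd7, Dpf1 and Dpf3. Brd7 encodes a bromodomain subunit of PBAF, and its peak of 1253 bp (chr8:88436886-88438138) was 75318 bp upstream, shared with Nkd1, an inhibitor of WNT signalling, and nearer to Brd7. Dpf1 and Dpf3 encode BAF45 subunits, which read histone marks, and Dpf3 is known in heart and skeletal muscle. The Dpf1 peak (chr7:29367504-29368445) was 63998 bp downstream and only 148 bp from a TSS of Sipa1l3. The Dpf3 peak of 1928 bp (chr12:83072359-83074286), the widest of the 26, was 414394 bp downstream, in an intron of Rgs6, a regulator of G protein signalling, whose TSS was 26332 bp away. The peak was 221106 bp from the closest TSS of Dpf3. The central 200 bases (chr12:83073222-83073421, minus strand as the gene) held the only GATA match (AGATAA) among the central 200 bases of the 26 peaks.
Dpf3 peak: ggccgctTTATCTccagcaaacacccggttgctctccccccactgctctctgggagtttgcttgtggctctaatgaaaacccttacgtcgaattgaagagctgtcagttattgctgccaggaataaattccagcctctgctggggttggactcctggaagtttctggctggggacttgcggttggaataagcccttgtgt
At both Dpf1 and Dpf3 another gene was closer to the peak.

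Of the 19 BAF genes, 9 had at least 1 peak (47.4%, CI 27.3 to 68.3%). The 10 without were Smarcb1, Smarcc1, Smarcc2, Smarcd1, Smarcd3, Smarce1, Arid2, Pbrm1, Phf10 and Dpf2. They included the core and scaffold subunits Smarcb1, Smarcc1 and Smarcc2. For these the nearest peak was 53973, 242622 and 199048 bp from a TSS of the gene. Smarcd3, the BAF60 subunit best known from the early heart, had its nearest peak at 66473 bp, in the domain of Gbx1, a homeobox gene. Smarcd1, the remaining BAF60 gene, had its nearest peak at 97768 bp. For Smarce1, Pbrm1, Phf10 and Dpf2 the distances were between 77255 bp (Pbrm1) and 356304 bp (Phf10). The peak at the TSS of Smarcd2 was thus without a counterpart within 1 kb at the other 2 members of this subfamily.

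Jarid2 accounted for most of the peaks at PRC2 genes. It had 4 peaks over 830744 bp, with no pair closer than 187645 bp. Besides the peak near the TSS, there were peaks 645773 and 344881 bp upstream and 184971 bp downstream. The downstream peak (chr13:44915629-44916855) lay in intron 16 of the gene, 30902 bp from the TSS of Dtnbp1. Those upstream were shared with Cd83, and the nearer of them (chr13:44386169-44386611) lay in a long noncoding RNA gene, Gm33958. Among protein-coding genes, a TSS of Jarid2 was the nearest to it. This peak was 32.7% G and C, the lowest share of the 26. Ezh2, which encodes the main catalytic subunit of PRC2 in dividing cells, had 1 peak (chr6:47499540-47500085). This peak was 95218 bp downstream of the TSS used for Ezh2 and 32304 bp from another, in an intron of Cul1, a ubiquitin ligase scaffold, whose TSS was 14997 bp away. Ezh1, Eed and Suz12 had none. Their nearest peaks were 561096, 588868 and 107204 bp away, and Eed, with a domain of 179010 bp, was the farthest from any peak of the 22 genes without one. In all, 2 of the 5 PRC2 genes had a peak.

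Among the deacetylases, 3 of 4 genes had a peak. Hdac9 and Hdac4 encode class IIa deacetylases, which hold back MEF2 transcription factors in muscle. Hdac9 had 3 peaks, 181622, 372401 and 424748 bp downstream of the TSS, in introns 11, 21 and 22 of the gene. They spanned 243126 bp, and the domain of Twist1, a transcription factor of mesenchyme, held them too. The TSS of Twist1 was 145909 bp from the farthest and 198256 bp from the next, nearer than that of Hdac9, and the TSS of Hdac9 was nearest to the first. This first peak (chr12:34346354-34347059) was 39.0% G and C, had no CpG and held 5 GATA matches, none of them within 100 bases of its midpoint. They are given because no other peak of the 26 had as many, each with its flanks on the strand of the match.
Hdac9 GATA match at chr12:34346531-34346536, plus strand: ccctctttgaAGATAAgattccattt
Hdac9 GATA match at chr12:34346582-34346587, minus strand: tttggagtcaAGATAAtgaatgttac
Hdac9 GATA match at chr12:34346821-34346826, minus strand: ttagcccatgAGATAActgattctgg
Hdac9 GATA match at chr12:34346847-34346852, plus strand: tgaaggttggAGATAAaccattttgt
Hdac9 GATA match at chr12:34346915-34346920, minus strand: taacataatgAGATAAatgactcagt
The Hdac4 peak of 1284 bp (chr1:92063813-92065096) was in intron 2, 115887 bp downstream of the TSS used and 48877 bp from another TSS of Hdac4, and was shared with Twist2. In its central 200 bases (chr1:92064354-92064553, minus strand as the gene) capitals mark an AP-1 (TGANTCA) and a TEAD match (GGAATG).
Hdac4 peak: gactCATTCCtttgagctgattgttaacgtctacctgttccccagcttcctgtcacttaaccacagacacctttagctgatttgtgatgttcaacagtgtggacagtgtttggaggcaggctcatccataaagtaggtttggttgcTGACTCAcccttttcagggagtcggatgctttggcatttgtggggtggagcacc
Hdac9 and Hdac4 thus both had intronic peaks that lay also in the domain of a TWIST gene. Hdac5 and Hdac7, class IIa genes that are not among the genes described here, had no peak in their domains. Their nearest peaks were 408999 and 63613 bp away.

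Hdac2 encodes a class I deacetylase found in several corepressor complexes. Its peak (chr10:37000816-37001386) was in intron 13, 26557 bp downstream of the TSS used and 2929 bp from another TSS of Hdac2. Marcks, a substrate of protein kinase C, was the other gene. The central 200 bases (chr10:37001001-37001200, plus strand) held 1 AP-1 match.
Hdac2 peak: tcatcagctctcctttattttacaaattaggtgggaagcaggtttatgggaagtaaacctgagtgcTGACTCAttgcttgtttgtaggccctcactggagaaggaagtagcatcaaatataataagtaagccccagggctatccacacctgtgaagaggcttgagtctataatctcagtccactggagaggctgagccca
Hdac1, the close relative of Hdac2, had no peak nearer than 394801 bp.

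Of the genes for marks at H3K4, only Wdr5, which encodes a core subunit shared by the MLL-type complexes, had a peak (chr2:27636514-27637479). It was 121839 bp downstream of Wdr5 and 39444 bp from the TSS of Rxra, a retinoid receptor gene. The methyltransferase genes Kmt2a, Kmt2c and Kmt2d had none, although the domain of Kmt2c measured 282913 bp. The peaks nearest to Kmt2a and Kmt2c were 111748 and 179562 bp away. Kmt2d encodes an enzyme of enhancers that is needed in the heart, and its nearest peak, at 26047 bp, lay in the domain of Ddn. Neither Kdm5a and Kdm5b, which remove methylation from H3K4, nor Kdm6b, which removes it from H3K27, had a peak, and the nearest were 101557, 315920 and 139001 bp away. The acetyltransferase genes Ep300 and Crebbp, with domains of 191592 and 335980 bp, had none either. For Crebbp the nearest peak was in an intron of Trap1 and in the domains of Trap1 and Dnase1. It was 17234 bp from an alternative TSS of Crebbp, not the one used for the domain. This was the shortest such distance among the 22 genes without a peak, and for Ep300 it was 229173 bp.

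Ino80, the ATPase of a remodeller that exchanges histone variants, had 2 peaks, 164413 bp apart. The upstream peak, at 42539 bp (chr2:119520023-119520429), overlapped coding sequence of Exd1. The other (chr2:119355480-119356146) was 121874 bp downstream of the TSS of Ino80 and 4584 bp from that of Chac1. For the 22 genes without a peak in their domain, the distance from the closest TSS of the gene to the nearest peak had a median of 142320 bp, and it exceeded 50 kb in 20 genes and 100 kb in 16. Crebbp and Kmt2d were the exceptions below 50 kb. These distances follow in part from the rule, since a near peak would often lie in the domain, and were not compared with those of other genes.

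To read the count of 16 genes, domain length has to be taken into account, since a longer domain holds more peaks. Over all protein-coding genes, 4979 (22.7%) had a peak in the domain, and among the 38 genes the share was 42.1% (CI 27.9 to 57.8%). The 21911 genes were cut into 10 classes of equal size by domain length. The share with a peak was 5.71% in class 1, that of the shortest domains, and then 9.36, 11.0, 13.5, 16.3, 19.9, 27.5, 34.8 and 45.0% up to class 9, with 44.1% in class 10. The domains of the 38 genes ranged from 13775 bp at Pbrm1 to 1422693 bp at Arid1b, with a median of 147245 bp. The median was 291658 bp for the 16 genes with a peak and 96102.5 bp for those without. If each gene had the share of its own class, 10.5 of the 38 would have a peak (27.5%), so the observed count was 1.53 times that of genes of like domain length. The share of 27.5% lay just below the confidence interval of the 38 genes, but this depended on the setting. Against genes of the same class on the same chromosome the ratio was 1.38, which puts their share inside the interval. Using the TSS of the longest transcript for the domains put it inside as well. The 38 genes were also chosen with earlier results of these data known, so the interval does not serve as a test. When peaks were assigned to genes within 50 kb of the TSS instead, the direction turned, with 6 genes and a ratio of 0.792. By that rule 22.3% of all protein-coding genes had a peak. The 26 pairs compared with 15.2 for genes of like length.

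**Figure D2:**
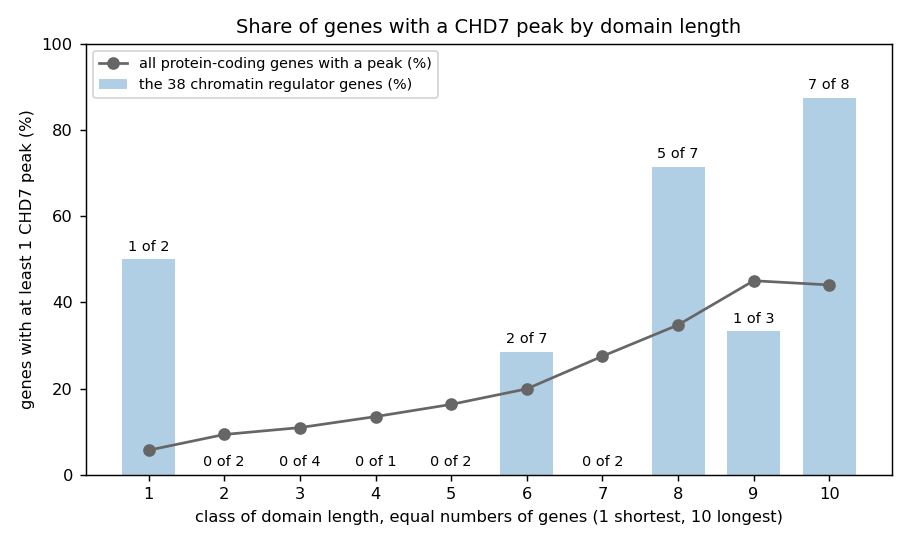
Share of genes with at least 1 CHD7 peak (percent, vertical axis) in each of 10 classes of domain length (horizontal axis, shortest to longest), as a line for all protein-coding genes and as bars for the 38 genes, with their counts above. The line rises from 5.71% in class 1 to 45.0% and 44.1% in classes 9 and 10, and 7 of the 8 genes in class 10 had a peak.

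The genes with a peak were not spread evenly over domain length. In classes 1 to 5, 1 of 11 genes had a peak, and this was Smarcd2, where 11.2% of all genes did. In classes 6 to 8, 7 of 16 had a peak, with 27.4% over all genes. In classes 9 and 10, 8 of 11 had one, with 44.6% over all genes. Class 10 alone held 8 of the 38 genes, of which Arid2 had no peak. There, Arid1b, Jarid2 and Hdac9 had at least 3 peaks each, 3 of 8 genes, against 8.53% of all genes in the class. Arid1b and Jarid2 had at least 4, against 3.42%. The genes with many peaks were thus in the long domains, where many peaks are also more frequent in general.

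By complex, the observed counts stood at different places beside genes of like length. For BAF it was 9 against 4.45, a ratio of 2.02. The HDAC count was 3 against 1.43, PRC2 had 2 against 1.57, and Ino80 alone 1 against 0.348. The list of H3K4 methyltransferases with their subunit Wdr5 had 1 against 1.11, and this 1 gene was Wdr5. The demethylase and acetyltransferase genes had none, where genes of like length would have 0.750 and 0.798, fewer than 1 gene each. Without the BAF genes, a setting added after seeing the data, the ratio over the rest was 1.17. Leaving out any other complex gave ratios from 1.44 to 1.66. A difference between the complexes was not tested.

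**Figure D3:**
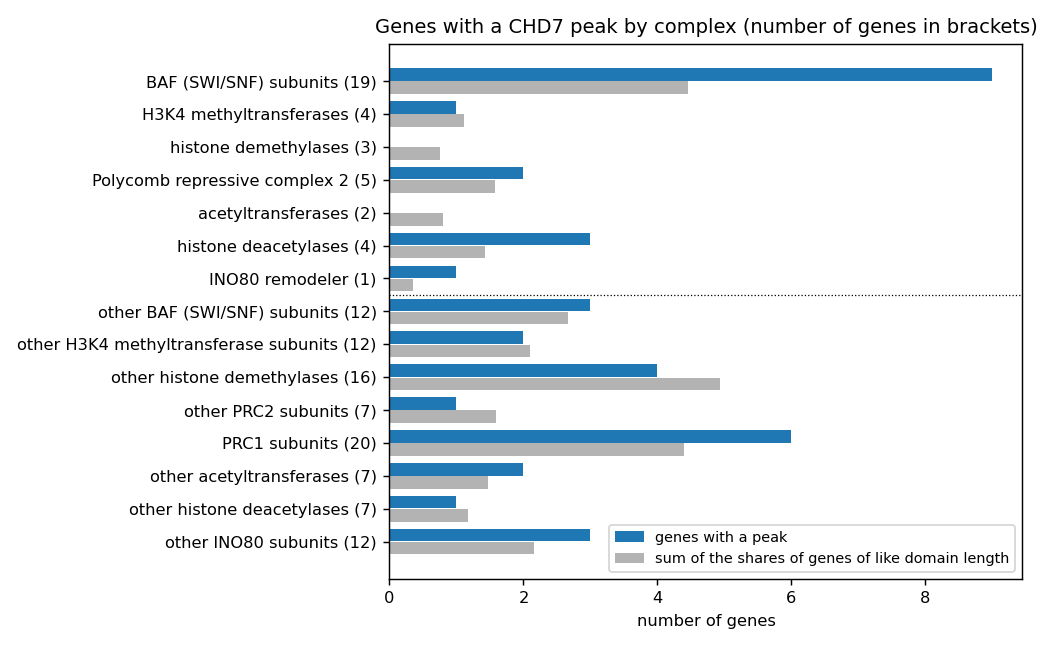
Number of genes with at least 1 CHD7 peak in each list (bars from 0), with the number for genes of like domain length, for the 7 lists of the 38 genes and the 8 lists of other genes of the same kinds. BAF shows 9 against 4.45, and no other list differs by as many genes.

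The 26 peaks were then compared with all 3761 peaks of the list, as a description. Their width (median 665.5 against 703 bp), their G and C content (48.4 against 47.5%), the part masked as repeats (12.9 against 13.2%) and the CpG ratio (0.182 against 0.212) were close to those of all peaks. They lay farther from genes. The median distance to the nearest TSS of any protein-coding gene was 36229 bp against 13852 bp. Of the 26, 20 were more than 10 kb from a TSS (76.9%, CI 57.9 to 89.0%), with 56.7% of all peaks, and 10 were more than 50 kb away (38.5%, CI 22.4 to 57.5%), with 24.6%. The share within 1 kb was 15.4% (CI 6.15 to 33.5%), with 15.6% of all peaks. Introns held 10 (38.5%, with 44.3% of all peaks) and sequence outside protein-coding genes held 14 (53.8%, with 46.8%). Untranslated regions held 0 of the 26 midpoints, which allows a share of up to 12.9% (Wilson), and 4.76% of all, so that these shares were near those of all peaks. Distance to a TSS and domain length are linked, since long domains lie in gene-poor sequence, and cannot be told apart here.

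**Figure D4:**
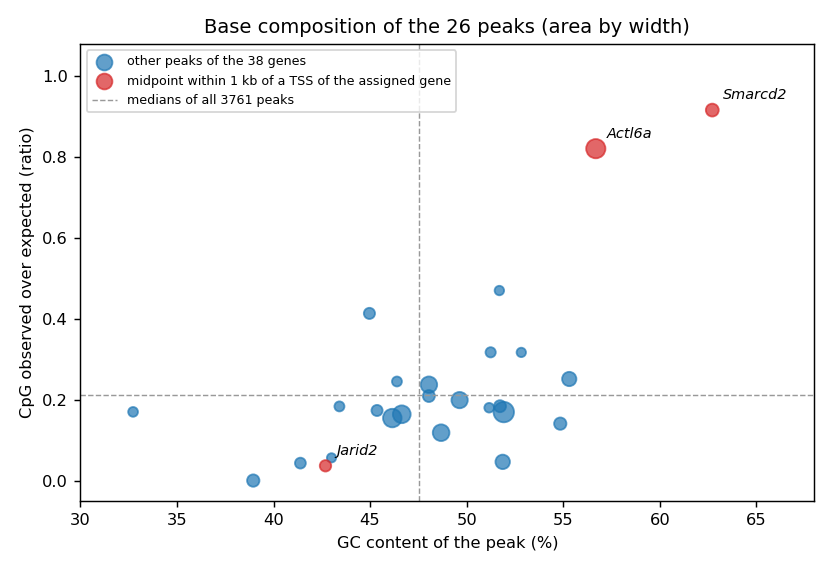
G and C content (percent, horizontal axis) and observed to expected ratio of CpG (vertical axis) of the 26 peaks, with circle area by peak width, red for those within 1 kb of a TSS of the assigned gene and dashed lines at the medians of all 3761 peaks. The Smarcd2 peak (62.7%, 0.916) and the Actl6a peak (56.7%, 0.821) stand at the CpG-rich end, and the Jarid2 peak near the TSS (42.7%, 0.0365) and the first Hdac9 peak (39.0%, 0) at the other.

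For sequence motifs, 8 short consensus motifs were searched on both strands of the central 200 bp of each peak. The AP-1 consensus was found in 5 of the 26 peaks (19.2%, CI 8.51 to 37.9%) and in 6.65% of all peaks. These were the peaks of Hdac2 and Hdac4 printed above and 1 peak each of Arid1b, Wdr5 and Ino80. The matches of Hdac2, Hdac4, Wdr5 and Ino80, with their flanks on the plus strand, are shown because they are the letters behind this count. The core of Hdac4 is the reverse complement of that of Hdac2 and Wdr5, and the core of Ino80 differs from them in the middle base.
Hdac2, chr10:37001067-37001073: acctgagtgcTGACTCAttgcttgttt
Hdac4, chr1:92064401-92064407: ctgaaaagggTGAGTCAgcaaccaaac
Wdr5, chr2:27637006-27637012: tccactgttcTGACTCAgttcctatct
Ino80, chr2:119355724-119355730: ctggggacagTGATTCAcggaacactg
The interval for AP-1 lay above the share of all peaks, but 8 motifs were searched. Over 100 bp in place of 200 bp the count was 2 (7.69%, CI 2.14 to 24.1%), with 3.16% of all peaks. Over the whole width of the peaks, AP-1 was found in 10 of 26 (38.5%), with 23.1% of all peaks.

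The ETS core was found in 3 peaks (11.5%, with 3.72% of all), those of Arid1a, Brd7 and Actl6a. Over the whole width the shares were 15.4 and 13.2%. The GC box was found in 2 (7.69%, with 8.67% of all), at Smarcd2 and in 1 of the distant peaks of Arid1b. GATA, the core bound by the GATA factors of the heart, was found in 1 (3.85%, with 11.8% of all) in the central 200 bp and in 10 (38.5%, with 36.8%) over the whole width. SOX was found in 3 (11.5 against 16.5%), TEAD in 2 (7.69 against 11.8%) and the homeodomain core (TAATTA) in 1 (3.85 against 4.55%). The CTCF core was found in 0 of 26, which allows a share of up to 12.9% (Wilson), and in 0.771% of all. A match describes the letters in these windows and is not evidence that a factor was bound.

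**Figure D5:**
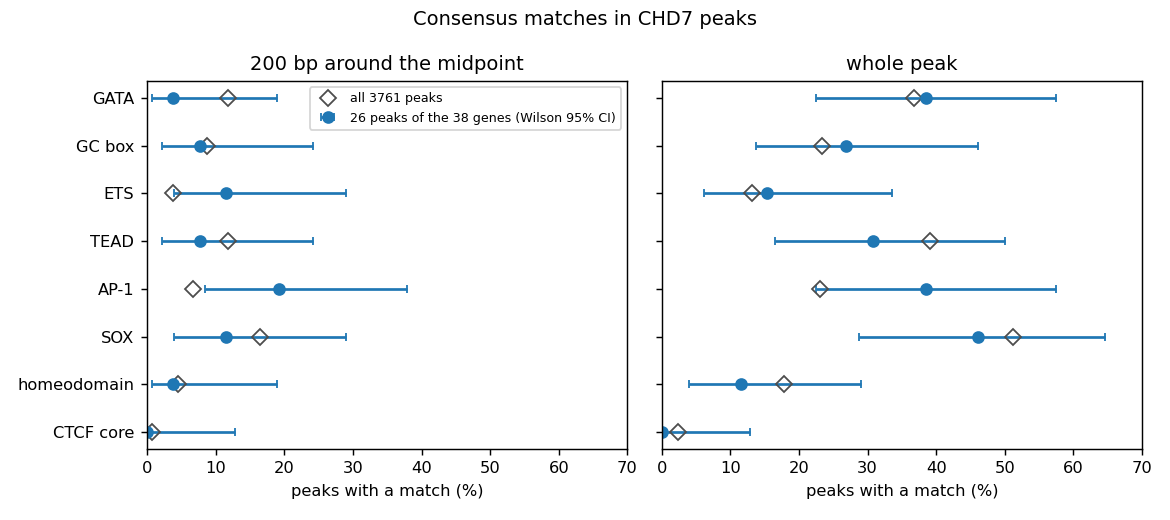
Share of peaks (percent, horizontal axis, from 0) with at least 1 match to each of 8 motifs in the central 200 bp (left) and over the whole peak (right), for the 26 peaks of the 38 genes (filled points with Wilson 95% intervals) and for all 3761 peaks (open diamonds). In the central 200 bp AP-1 was at 19.2% against 6.65%, and GATA at 3.85% against 11.8%.

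The other genes of the same complexes, 93 in all, gave a different count. Of these, 22 had a peak (23.7%, CI 16.2 to 33.2%), against 20.5 for genes of like domain length, a ratio of 1.07. Among other BAF subunits 3 of 12 had one, Bcl11a, Bcl11b and Ss18, against 2.67 for genes of like domain length. That ratio was 1.12, lower than the 2.02 of the BAF genes among the 38. For PRC1, the Polycomb complex that ubiquitinates histone H2A, it was 6 of 20 against 4.39, a ratio of 1.37. Within 1 kb of a TSS of their own there were 3 of the 93, Kdm4b, Pcgf6 and Hdac11, as against 3 of the 38. Within 5 kb there were 6 of the 93 and 4 of the 38, with 6.03% of all genes. In classes 1 to 5 of domain length 5 of 46 of these genes had a peak, and in classes 9 and 10, 9 of 16. The confidence interval of the 38 genes (27.9 to 57.8%) and that of the 93 genes overlapped, and the difference between them was not tested.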

How the data were processed

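The authors performed CUT&RUN on CP cells of day 5, with 3 biological replicates for each of anti-CHD7, the IgG control and Input. Per the submitters' processing notes, fastp 0.20.1, BWA 0.7.17.4, MACS2 2.1.2 and deepTools 3.1.0 were used on mm10. Per the paper's methods, duplicates were removed by unique molecular identifiers, peaks were called in each sample against IgG, and those overlapping in more than 1 replicate were kept. The deposited list holds only the chromosome and boundaries of every peak, in bp, and no other value. Any threshold of the caller therefore acts on every count given, and depth is unknown. Reads, IgG and Input were not used here.

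Starts were read as counted from 0. Peaks were assigned by midpoint to domains on GRCm38.p6 with GENCODE M21, 1 TSS per protein-coding gene (protein-coding transcripts first, then APPRIS level, then spliced length). Distances to the closest TSS of a gene used every transcript of it. Genes of like domain length are those of the same one of 10 equal classes of domain length, and the number at like length is the sum of the class shares. The settings tried instead are given in the closing section. Sequences were read from the GRCm38.p6 genome. No test was run over genes. All 38 genes were accounted for, and full values are given for those with a peak within 1 kb of their TSS, with at least 3 peaks or with the nearest peaks, and for the 5 longest domains without a peak. Values for further genes of the 38 were added after the data were seen. The members, the lists and the motifs were chosen with earlier results of these data known. The functions were tested on simulated data. Analyses used Python 3.11.15, numpy 2.4.6, pandas 2.3.3, scipy 1.17.1, pysam 0.24.0, matplotlib 3.10.9 and samtools 1.23.1. Some genes and sequences are not reported here.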

Additional observations from a re-analysis of the deposited data

How the results depend on the processing

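The counts rest on 1 list of positions. Library depth, peak strength, the caller's threshold and replicate spread are unknown, so a gene without a peak is one at which none was detected, and precision rests on how many peaks there are. No paired analysis was possible because the 3 replicates were pooled in 1 list, and leaving out a replicate could not be done for the same reason. The domain rule mattered most. Of the 38 genes, 16 had a peak, with 26 pairs and a ratio to like length of 1.53. With an extension of 100 kb there were 10 genes, 11 pairs and 1.34. With the basal domain alone there were 3, 3 and 2.65, with the nearest TSS 10 genes and 12 pairs, and within 50 kb 6, 6 and 0.792, the one reversed direction. Peaks wider than the median gave 10, 11 and 1.67, with 13.0% of all genes. Domains bounded by noncoding genes too gave 12, 16 and 1.51, with 17.8% of all genes. Assigning by the nearest TSS of any transcript, added after seeing the data, gave 9. For motifs, whole peaks in place of the central 200 bp gave 10 peaks for GATA (38.5%, with 36.8% of all peaks). The GC box gave 7 (26.9%, with 23.4%), TEAD 8 (30.8%, with 39.1%) and AP-1 10 (38.5%, with 23.1%). SOX gave 12 (46.2%, with 51.2%) and the homeodomain core 3 (11.5%, with 17.9%). Over 100 bp GATA gave 0 (with 6.54% of all peaks) and TEAD 1 (3.85%, with 5.53%). AP-1 gave 2 (7.69%, with 3.16%) and SOX 1 (3.85%, with 8.14%). The shares of all peaks also rose with the wider window and fell with the shorter one. The cause of these changes was not tested, apart from the window length itself. The other 19 alternatives for the ratio kept it above 1 and within 1.5 times of its value. Some of these kept the count of 16 genes. Among those, matching by chromosome and class put the share at like length inside the confidence interval of the 38 genes. So did using the TSS of the longest transcript. Where the count or the set of genes changed, no interval was computed. A ratio above 1 there does not show an excess beyond counting error.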

Other observations

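Among the other genes of the complexes, Ino80c, a subunit of the INO80 remodeller, had the most peaks, 5 in a domain of 174956 bp. The mean over all genes of its class of domain length was 0.339 peaks. The peaks of Ino80c lay 50895 and 5735 bp downstream and 22611, 32510 and 57275 bp upstream of the TSS. Masked repeats made up 78.7% of the peak at 50895 bp and 57.0% of that at 32510 bp. Of all peaks, 6.91% were mostly masked repeats. The peak at 57275 bp was nearer to Galnt1. Rybp, a PRC1 subunit, had 3 peaks, 254787 bp downstream and 279935 and 284801 bp upstream, in a domain of 938764 bp. The upstream peaks of Rybp were nearer to a TSS of Shq1, and the farther of them lay in an untranslated region of Shq1. Phf2, a histone demethylase, had peaks 124148 bp downstream and 64422 bp upstream. The downstream peak was nearer to Barx1, and the upstream peak lay in an intron of Fam120a, whose TSS was nearer. Kat6b, an acetyltransferase, had peaks 435428 and 130888 bp upstream. Both lay in introns of Adk, 10398 and 173 bp from a TSS of Adk.

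Among the further genes with a peak at a TSS, the peak lay 277 bp upstream of Hdac11, a deacetylase, and 245 bp upstream of Pcgf6, a PRC1 subunit of germline gene repression. The peak of Kdm4b, a demethylase of H3K9, was in intron 6 of the gene, 45918 bp downstream of the TSS used for the domain and 303 bp upstream of an alternative TSS within the gene.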
